A study of Mus musculus with 6 samples.

Results

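The genes described here are 9 markers of microglia, followed in RNA pulled down with tagged ribosomes from D2 neurons of the mouse medial prefrontal cortex (mPFC). They are the rows of the deposited transcript table named C1qa, C1qb, C1qc, Csf1r, Cx3cr1, P2ry12, Tmem119, Trem2 or Aif1 and were found by these names. All 9 names were found, with 26 listed transcripts, among 47729 genes and 115220 transcripts. Values are FPKM, the number of sequenced fragments scaled to the length of the transcript and to the size of the library, summed over the listed transcripts of each gene and called gene totals below. FPKM divides by length, so levels can be set side by side between genes.

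The study asked what the loss of GSK3β from these neurons does to their translatome, the RNA bound to ribosomes. All 6 libraries came from adult male D2Cre/LSL-Flag-Cas9/RiboTag mice of the C57BL/6 strain. D2Cre is a heterozygous bacterial artificial chromosome transgene, and by the study's methods Cre switches on both Cas9 and a hemagglutinin-tagged Rpl22, a protein of the large ribosomal subunit, in cells that use the D2 dopamine receptor promoter. Control and knockout mice therefore both carried Cas9 and the tag. The 3 Ctrl libraries were from mice given AAV GFP in the mPFC and the 3 Gsk3sKO libraries from mice given AAV Gsk3sgRNA/GFP, which adds the guide against Gsk3b. The mPFC was dissected 3 weeks later and the tagged ribosomes were immunoprecipitated. The labels do not say whether a library is 1 mouse or a pool, so every p-value rests on library-to-library spread alone, part of which may be technical. No library of the input RNA was analysed here, so an enrichment or depletion by the immunoprecipitation cannot be given.

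Microglia are the resident immune cells of the brain. They make the 3 chains of C1q, the protein that starts the classical complement cascade and that marks synapses for removal in development and disease. They depend on signals through the CSF1 receptor, watch neurons through the fractalkine receptor CX3CR1 and the ADP receptor P2RY12, and sense lipids and debris through TREM2. C1q is assembled from A, B and C chains that each begin with a collagen-like tail, a run of triplets in which every first residue is glycine.

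The C1q genes are the members whose Ctrl and Gsk3sKO libraries did not overlap, so their sequences are shown first. They lie next to each other on the minus strand of mouse chromosome 4, with C1qb at chr4:136880129-136886187, C1qc at chr4:136889804-136893065 and C1qa at chr4:136895917-136898803 (GRCm38). The GENCODE M21 annotation has no further gene between them. Below are 60 coding bases from the collagen-like part of each chain, read from the GENCODE M21 transcripts with the glycine codons (GGN) that open each triplet in capitals. The stretch of C1qa is in exon 3 of 3 at chr4:136896649-136896708, that of C1qb in exon 2 of 3 at chr4:136882158-136882217, and that of C1qc in exon 3 of 3 at chr4:136890523-136890582.
C1qa: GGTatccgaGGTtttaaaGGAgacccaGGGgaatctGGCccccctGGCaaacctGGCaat
C1qb: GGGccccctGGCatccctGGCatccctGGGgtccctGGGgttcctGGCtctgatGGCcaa
C1qc: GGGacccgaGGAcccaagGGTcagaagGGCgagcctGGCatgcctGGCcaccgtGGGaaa

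The longest unbroken run of such triplets held 16 glycine codons in C1qa, 29 in C1qb and 16 in C1qc. Although the chains share this repeat, their coding sequences matched at 61.7% of aligned positions between C1qa and C1qb, 64.2% between C1qa and C1qc and 63.2% between C1qb and C1qc. The longest identical stretch between any pair of the transcripts was 15 bases, found between C1qb and C1qc.

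A RefSeq promoter window (300 bases, 250 before and 50 after the start, GRCm38.p6) was matched for 6 of the 9 genes: C1qb, C1qc, Cx3cr1, P2ry12, Trem2 and Aif1. The windows were searched on both strands for GAGGAA, core letters of the sites bound by PU.1 (Spi1), the transcription factor of the myeloid lineage, whose reverse complement is TTCCTC. The letters were found in 4 of the 6 windows, those of C1qb, C1qc, Trem2 and Aif1, and in 9289 of all 32851 windows (28.3%). The upstream bases of both C1q genes with a window are shown on the gene's strand, with the match in capitals, because these neighbours were lower together in the knockout libraries. The C1qb stretch is chr4:136886201-136886450 and the C1qc stretch, limited to the bases outside the annotated transcript, is chr4:136893066-136893164. A match is a description of the letters and not a site.
C1qb upstream: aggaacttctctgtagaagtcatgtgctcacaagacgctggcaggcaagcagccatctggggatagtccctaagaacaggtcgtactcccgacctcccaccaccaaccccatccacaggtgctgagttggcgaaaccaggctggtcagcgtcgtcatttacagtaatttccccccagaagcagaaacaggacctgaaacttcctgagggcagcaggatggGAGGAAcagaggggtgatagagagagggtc
C1qc upstream: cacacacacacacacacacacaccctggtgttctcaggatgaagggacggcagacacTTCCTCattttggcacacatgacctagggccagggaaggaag

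The libraries differed in depth and in the D2 genes they held. The files used here give no depth, and the spacing of low FPKM values gave approximately 23600000 to 45400000 mapped fragments per library, with between 41.2% and 55.8% of the low values on the inferred steps, so it is a rough guide. Neuron markers (10 genes) summed to between 3536 and 3807 FPKM per library. Drd2, the gene whose promoter drives Cre, was at 1.58, 6.02 and 14.1 FPKM in Ctrl libraries 1 to 3 and at 8.32, 5.96 and 7.28 FPKM in Gsk3sKO libraries 1 to 3. Ctrl 1 thus held the least Drd2, and it also listed Adora2a, another gene of D2 neurons, at 0. Gsk3b itself was at 35.6, 53.8 and 56.5 FPKM in the Ctrl libraries against 36.9, 37.0 and 33.6 FPKM in the Gsk3sKO libraries, with overlap through Ctrl 1 and an adjusted limma p of 0.773. Small insertions and deletions left by Cas9 need not remove an RNA, so this gene total is a weak check of the labels.

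All 9 microglia markers were present at low levels. Their mean over the 6 libraries ran from 6.81 FPKM for C1qb through C1qa at 3.801, P2ry12 at 3.75, C1qc at 3.65, Aif1 at 3.05, Csf1r at 2.89, Cx3cr1 at 1.72 and Tmem119 at 0.926 to Trem2 at 0.434 FPKM. C1qb was the highest member in every library, and every other pair of neighbours in this order changed places in at least 1 library. Among gene totals above 0 in at least 1 library the members sat between the 43.9th percentile (Trem2) and the 72.5th percentile (C1qb). The median of the gene means was 3.05 FPKM for the members, against 3.53 FPKM for 10 endothelial markers, 7.63 FPKM for 10 oligodendrocyte lineage markers, 9.38 FPKM for 10 astrocyte markers and 213 FPKM for the neuron markers. The 9 members were therefore detected in ribosome-bound RNA in which neuron markers stood far higher, at a median like that of endothelial markers. Other microglia and macrophage genes, listed below, had lower medians. These were 0.730 FPKM for homeostatic genes, 0.295 FPKM for transcription factors and surface genes and 2.42 FPKM for phagocytic genes.

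**Figure D1:**
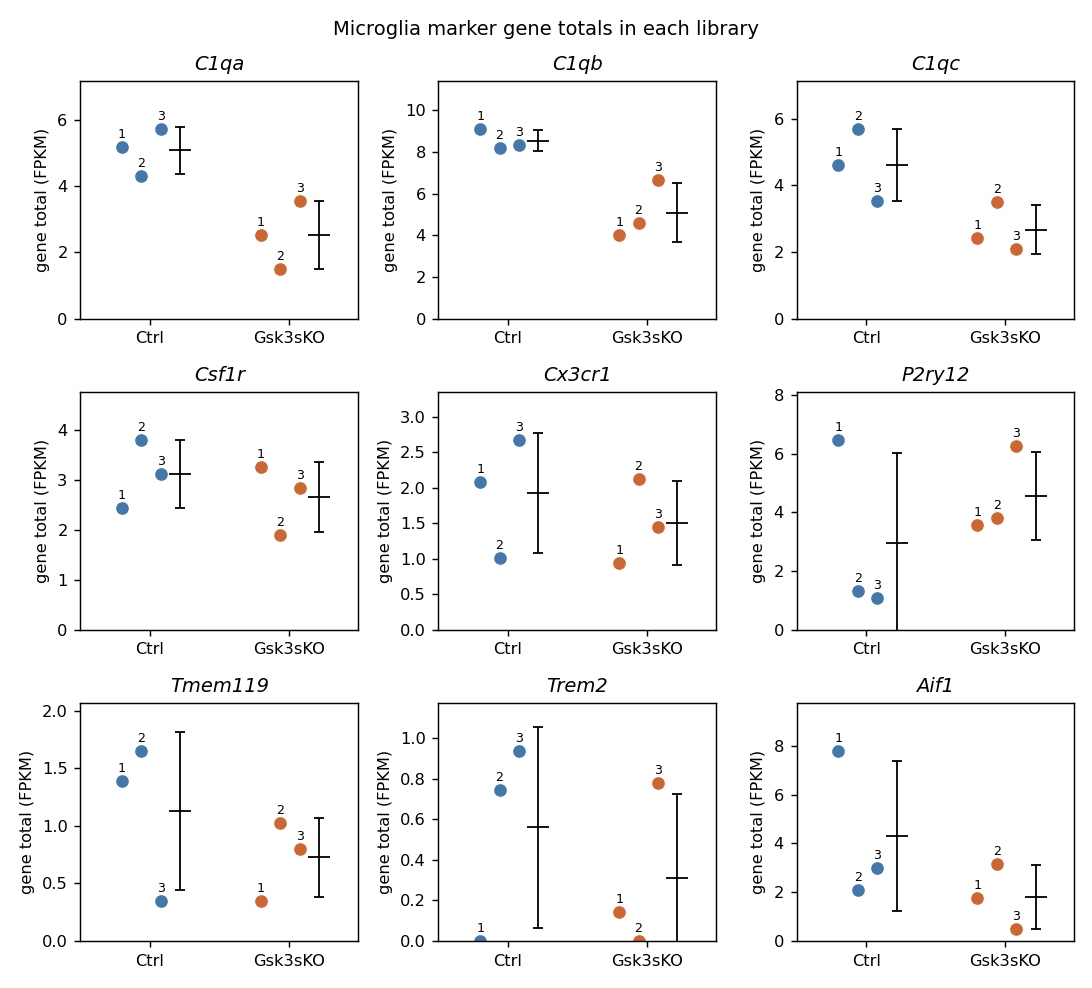
Gene totals in FPKM (y axis, from 0) of the 9 members in each Ctrl (blue) and Gsk3sKO (orange) library, numbered by replicate, with the mean and SD of each group as a black bar, drawn only above 0. C1qa, C1qb and C1qc have every Gsk3sKO point below every Ctrl point, and the other 6 genes overlap.

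The chains of C1q were the members whose groups were set apart. C1qa was at 5.18, 4.30 and 5.73 FPKM in Ctrl libraries 1 to 3 and at 2.53, 1.51 and 3.56 FPKM in Gsk3sKO libraries 1 to 3. C1qb was at 9.12, 8.17 and 8.34 FPKM in the Ctrl libraries against 4.005, 4.57 and 6.67 FPKM in the Gsk3sKO libraries. C1qc was at 4.62, 5.70 and 3.54 FPKM against 2.40, 3.51 and 2.099 FPKM. In each of the 3 genes the lowest Ctrl library lay above the highest Gsk3sKO library, by a narrow margin in C1qc.

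The group means (± SD, n = 3) were 5.07 ± 0.722 and 2.53 ± 1.03 FPKM for C1qa, a ratio of 0.499. For C1qb they were 8.54 ± 0.505 and 5.08 ± 1.40 FPKM, a ratio of 0.595, and for C1qc 4.62 ± 1.08 and 2.67 ± 0.742 FPKM, a ratio of 0.578. Knockout libraries thus held between 0.499 and 0.595 times the C1q RNA of controls. The study states that the tag is made only in D2 neurons, and how RNA of microglia came into the immunoprecipitates was not tested. Fewer microglia, less of these RNAs per cell and a different carry-over of untagged RNA cannot be told apart in bulk libraries of this kind.

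The test was limma's moderated test on log2(FPKM + 1) over the 12874 gene totals with a mean of at least 1 FPKM. Fold changes on this scale understate changes of genes near 1 FPKM. C1qa differed by -0.82 (SE 0.29, 95% interval -1.47 to -0.16) with an adjusted limma p of 0.688. C1qb differed by -0.67 (SE 0.22, interval -1.19 to -0.16), also with an adjusted limma p of 0.688, and C1qc by -0.61 (SE 0.27, interval -1.23 to 0.0029) with 0.755. None of the 3 passed the adjusted threshold of 0.05, which only 6 gene totals of the whole table passed. At the unadjusted threshold of 0.05, C1qa and C1qb passed and C1qc did not. An exact two-sided permutation test of each gene's 6 values gave 0.1, the smallest p that 3 against 3 libraries allow.

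Single libraries decided which of the chains passed the unadjusted threshold. C1qa missed it without Ctrl 3 (difference -0.74) and without Gsk3sKO 2 (-0.59), and C1qb missed it without Gsk3sKO 1 (-0.54). C1qc in turn passed it without Ctrl 3 (-0.76) and without Gsk3sKO 2 (-0.77).

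Summed, the C1q chains were at 18.9, 18.2 and 17.6 FPKM in the Ctrl libraries against 8.94, 9.59 and 12.3 FPKM in the Gsk3sKO libraries. The Ctrl sums were close to each other (18.2 ± 0.651 FPKM, SD, n = 3), and the Gsk3sKO sums (10.3 ± 1.80 FPKM) were on average 0.564 times as high, with Gsk3sKO 3 nearest to the controls. Per 1000 FPKM of neuron markers, C1q was at 4.97, 4.997 and 4.80 FPKM in the controls against 2.37, 2.71 and 3.48 FPKM in the knockouts. The neuron marker sums differed too little between libraries for this division to bear on the gap.

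Within a library the chains did not keep a fixed ratio. C1qa per C1qb ran from 0.330 in Gsk3sKO 2 to 0.687 in Ctrl 3, and C1qc per C1qb from 0.315 in Gsk3sKO 3 to 0.768 in Gsk3sKO 2. Over the 6 libraries, Pearson's r was 0.896 between C1qa and C1qb, 0.590 between C1qb and C1qc and 0.371 between C1qa and C1qc, as a description that includes the difference between groups. By the rough depth, the C1q values rest on between 45.2 fragments (C1qa in Gsk3sKO 2) and 450 fragments (C1qb in Ctrl 1), a limit on how closely ratios can be read.

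**Figure D2:**
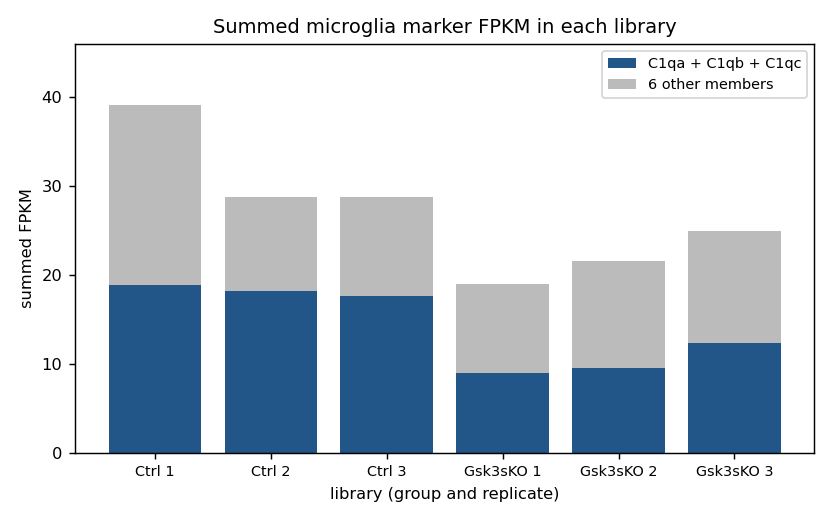
Summed FPKM (y axis, from 0) in each library (x axis) of the 3 C1q chains (dark) and of the 6 other members (grey). The C1q part is 17.6 to 18.9 FPKM in Ctrl and 8.94 to 12.3 FPKM in Gsk3sKO, while the grey parts overlap, with Ctrl 1 highest at 20.2 FPKM.

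The receptors showed no such separation. Csf1r, the receptor for the survival factors CSF1 and IL-34, was at 2.43, 3.81 and 3.13 FPKM in the Ctrl libraries against 3.26, 1.901 and 2.83 FPKM in the Gsk3sKO libraries. Cx3cr1, the receptor for the neuronal chemokine fractalkine, was at 2.08, 1.02 and 2.68 FPKM against 0.948, 2.12 and 1.447 FPKM. The groups interleaved in both genes. Csf1r differed by -0.17 on the log2 scale (interval -0.80 to 0.45, adjusted limma p 0.932) and Cx3cr1 by -0.21 (interval -0.998 to 0.58, adjusted p 0.933), intervals that hold both no change and differences as large as that of C1qb.

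P2ry12, the ADP receptor that guides microglial processes to damage, was the only tested member with a higher mean in Gsk3sKO. It was at 6.47, 1.31 and 1.07 FPKM in the Ctrl libraries against 3.56, 3.81 and 6.26 FPKM in the Gsk3sKO libraries, with Ctrl 1 above all the others. The difference was 0.72 (SE 0.49, interval -0.40 to 1.84, adjusted limma p 0.825). Without Ctrl 1, the library with the least Drd2, it was 1.31, past the unadjusted but not the adjusted threshold, and the groups did not overlap. The direction for P2ry12 was thus opposite to that of C1q with or without this library.

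Trem2, the lipid-sensing receptor of microglia, did not reach a mean of 1 FPKM and was left out of the main test. It was listed at 0, 0.743 and 0.937 FPKM in the Ctrl libraries against 0.144, 0 and 0.780 FPKM in the Gsk3sKO libraries, with a library listed at 0 in each group. Summed, the 4 receptors were at 11.0, 6.88 and 7.82 FPKM in Ctrl against 7.91, 7.83 and 11.3 FPKM in Gsk3sKO, a ratio of 1.05. The groups overlapped, and the sum was not tested. It joins P2ry12, with a ratio of 1.54, to Csf1r (0.853), Cx3cr1 (0.782) and Trem2 (0.550), whose means were lower in Gsk3sKO.

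The remaining markers are Aif1 and Tmem119. Aif1 encodes IBA1, the calcium-binding protein used to stain microglia, and was at 7.80, 2.11 and 2.99 FPKM in the Ctrl libraries against 1.77, 3.14 and 0.493 FPKM in the Gsk3sKO libraries. Ctrl 1 was far above and Gsk3sKO 3 far below the others, and the 4 libraries between them overlapped. Aif1 differed by -0.89 (SE 0.49, interval -2.02 to 0.24, adjusted limma p 0.792). The difference was -0.45 without Ctrl 1 and -1.23 without Gsk3sKO 2, where it passed the unadjusted threshold.

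Tmem119, a transmembrane protein used to tell microglia from incoming macrophages, was at 1.39, 1.65 and 0.349 FPKM against 0.350, 1.02 and 0.800 FPKM, and also fell short of the mean of 1 FPKM. With no filter on low values, Tmem119 differed by -0.26 (interval -1.12 to 0.59, adjusted limma p 0.828) and Trem2 by -0.24 (interval -1.07 to 0.58, adjusted p 0.835). Both intervals are too wide to place these genes with C1q or apart from it.

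**Figure D3:**
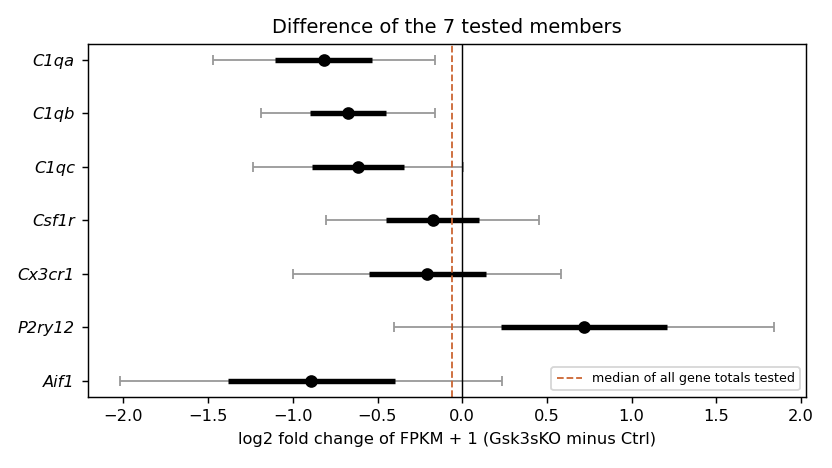
Difference of the 7 tested members on the log2(FPKM + 1) scale (x axis, Gsk3sKO minus Ctrl), with the SE as a thick and the 95% interval as a thin line, and the median of all tested gene totals dashed at -0.06. The intervals of C1qa and C1qb lie below 0, that of C1qc just reaches it, and only P2ry12 lies to the right.

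Counted together, 2 of the 7 tested members were lower at an unadjusted limma p below 0.05 (C1qa and C1qb, 28.6%) and 0 were higher. Over all gene totals tested, 5.20% were lower and 1.36% higher at that threshold, together 6.56%, and 0.0466% passed the adjusted one. The groups did not overlap in 3 of the 7, all lower, against 8.30% of all gene totals lower and 3.71% higher. The C1q chains sit side by side in the genome and form 1 protein, so these are not 3 separate observations. The median difference was -0.61 for the members and -0.06 for all gene totals, and 6 of 7 members were below 0 against 58.9% of all.

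The table as a whole leaned to lower values in Gsk3sKO, and the scaling of the libraries bears on this. Of all calls at the unadjusted threshold, 79.3% were lower as deposited and 65.7% after each library was rescaled to the median ratio, which moved the median difference by 0.05. C1qa and C1qb kept both their call and their separation after this rescaling. C1qc no longer separated, with Ctrl 3 at 3.34 and Gsk3sKO 2 at 3.57 rescaled FPKM. The FPKM of all transcripts summed to 608528, 550660 and 414548 in Ctrl libraries 1 to 3. In Gsk3sKO libraries 1 to 3 the sums were 422109, 398586 and 385795. Rescaling to these sums was not run, so the separation is shown only for the deposited values and the median ratio.

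For all 9 members the highest library was a Ctrl library, with 3 genes each in Ctrl 1, Ctrl 2 and Ctrl 3. The share of all gene totals that were highest in a Ctrl library was not computed. In P2ry12, Ctrl 1 at 6.47 FPKM was only just above Gsk3sKO 3 at 6.26 FPKM. The lowest library was a Ctrl library in P2ry12 and Tmem119, and in Trem2 Ctrl 1 and Gsk3sKO 2 were tied at 0. The summed members were at 39.1, 28.8 and 28.8 FPKM in Ctrl against 19.0, 21.6 and 24.9 FPKM in Gsk3sKO, without overlap and in a ratio of 0.678. Leaving out the C1q chains, the 6 other members summed to 20.2, 10.6 and 11.2 FPKM against 10.03, 11.99 and 12.6 FPKM, and the groups overlapped. C1q made up 48.4%, 63.1% and 61.2% of the summed members in Ctrl libraries 1 to 3 against 47.1%, 44.4% and 49.4% in the knockouts, so that Ctrl 1, with its high P2ry12 and Aif1, lay among the knockout libraries in makeup but not in C1q level.

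The deposited values are per transcript, and the members differ in how far 1 transcript speaks for the gene. C1qa and C1qb each have 1 listed transcript, and C1qc-201 held 98.1% of C1qc. At this level, over 21584 transcripts of which 3.75% were lower and 1.81% higher at an unadjusted p below 0.05 (5.56% in all) and 0 passed the adjusted threshold, 2 of 8 member transcripts were lower. They were those of C1qb (difference -0.67, SE 0.25) and C1qa (-0.82, SE 0.33), both with an adjusted limma p of 0.842, while C1qc-201 (-0.59, SE 0.31) missed the unadjusted threshold. The transcripts of all 3 chains were lower without overlap, as were 6.96% of all transcripts. Neither call was kept without any 1 of the Ctrl libraries, without Gsk3sKO 1 or 2, or with the replicate number as a block.

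Csf1r-202 took all Csf1r reads in 5 libraries and Csf1r-201 took all in Ctrl 3, at 3.13 FPKM, where Csf1r-202 was listed at 0. Such a switch leaves the gene total as it was, which is why totals were used. P2ry12-205, a short model of 619 bases, held 68.7% of the P2ry12 signal and made up nearly all of it in Ctrl 1, at 5.93 FPKM. The longer P2ry12-203 was at 0.539, 0.700 and 0.253 FPKM in Ctrl against 0.715, 2.49 and 1.94 FPKM in Gsk3sKO, higher without overlap, as 4.28% of all transcripts were, with an adjusted limma p of 0.859.

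Aif1 was split in the least certain way. Aif1-205, a retained-intron model of 462 bases without a coding sequence, held 55.7% of its signal and was at 5.75 FPKM in Ctrl 1. The coding Aif1-206 was at 2.043, 0 and 0.683 FPKM in the Ctrl and at 1.19, 0.460 and 0.493 FPKM in the Gsk3sKO libraries, and Aif1-203 was listed only in Ctrl 2, at 2.097 FPKM. Trem2 too was led by a retained-intron model, Trem2-203, with 37.4% of its signal. For these genes the sum depends on transcripts that are not mature messenger RNA. With coding transcripts alone, Aif1 differed by -0.58 in place of -0.89, and the ratio of the summed members was 0.698.

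**Figure D4:**
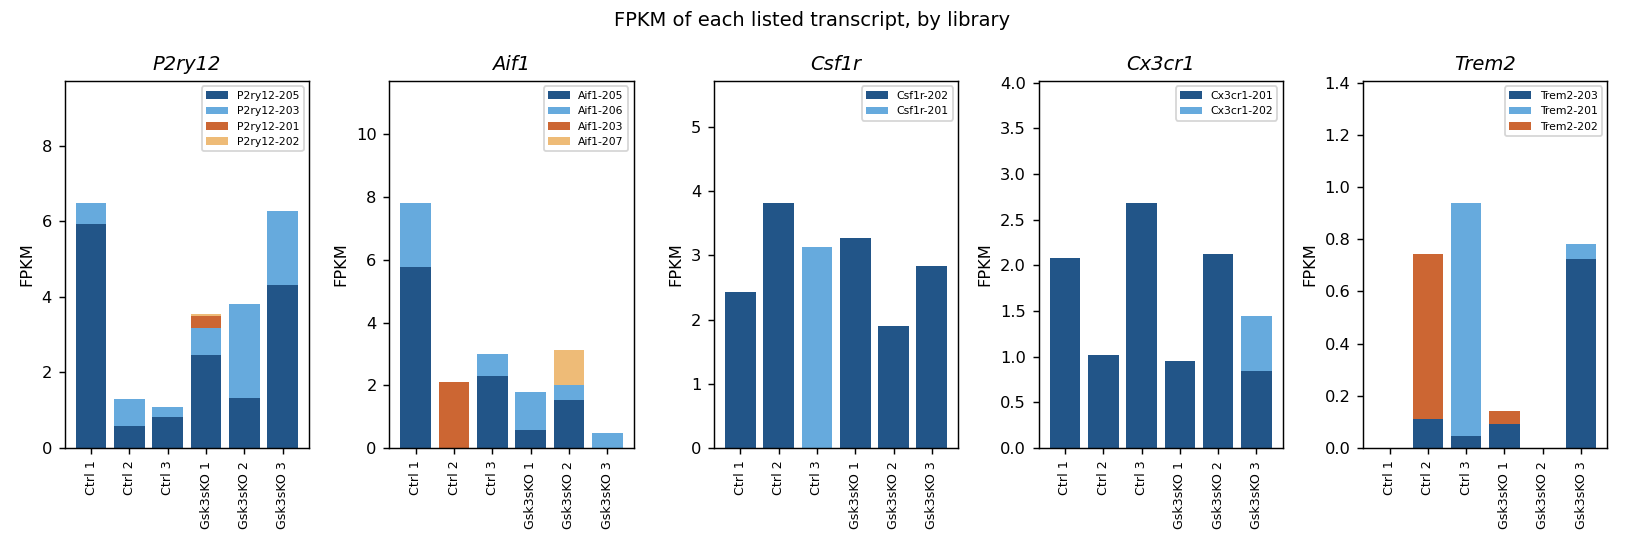
FPKM (y axis, from 0, a scale of its own in each panel) of each listed transcript above 0, stacked by library (x axis), for the 5 members whose signal is split between transcripts. Csf1r changes transcript in Ctrl 3, and the high Ctrl 1 totals of P2ry12 and Aif1 come from P2ry12-205 at 5.93 and Aif1-205 at 5.75 FPKM.

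The other genes of these pathways were taken from lists, and each is described by its counts. Of 19 gene totals of complement partners, 6 were tested, with a median difference of -0.10. At an unadjusted p below 0.05, 1 was lower (16.7%, against 5.20% of all gene totals) and 0 were higher. The lower one was C4b, the complement protein that C1q's proteases cut next, at 1.75, 3.002 and 3.97 FPKM in Ctrl against 1.34, 0.621 and 0.822 FPKM in Gsk3sKO (difference -0.996, SE 0.33, adjusted limma p 0.688). Its groups did not overlap. Serping1, the inhibitor of the C1 proteases, did not overlap either, at 0.682, 2.71 and 1.41 FPKM against 0.667, 0.435 and 0.568 FPKM. The margin between Ctrl 1 and Gsk3sKO 1 was narrow, and Serping1 missed the unadjusted threshold. Lower without overlap were thus 2 of the 6 tested partners (33.3%, against 8.30% of all gene totals). C4b and Serping1 had Gsk3sKO means of 0.926 and 0.557 FPKM, so both passed the filter only through Ctrl (2.91 and 1.60 FPKM).

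C3, a later protein of the cascade, was below the filter at 0.449, 0.408 and 0.116 FPKM in Ctrl and 0.0092, 0.224 and 0.194 FPKM in Gsk3sKO. C1qbp, a mitochondrial protein first found as a C1q binder, was the most abundant partner and ran from 23.4 to 36.2 FPKM with overlap. Cr1l, a complement regulator, ran from 3.08 to 5.67 FPKM and Masp1, a protease of the lectin pathway, from 2.75 to 4.85 FPKM, both with overlap. Apart from C4b, the partners gave no call.

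Of 17 ligands and signalling partners of the receptors, 12 were tested and 0 passed in either direction, with a median of -0.05. The fractalkine gene Cx3cl1, a neuronal ligand, ran from 127 to 196 FPKM. The lipid carriers Apoe and Clu, both ligands of TREM2, ran from 85.1 to 223 FPKM and from 62.7 to 95.6 FPKM, with Apoe highest in Ctrl 1. Tyrobp, the adaptor through which TREM2 signals, was below the filter and seen at 2.24 and 2.81 FPKM in Ctrl 2 and Ctrl 3 alone, with the other 4 libraries listed at 0. It was singled out after its values were seen.

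Among further microglial and macrophage genes, 33 of 71 were tested, 3 were lower (9.09%, against 5.20% of all gene totals), 0 were higher and 3 were lower without overlap (9.09%, against 8.30%), with a median of -0.15. The share without overlap is near that of all gene totals. The lower ones were Ctss, Cebpa and Fth1, 1 in each of the 3 lists pooled here. Ctss, the lysosomal protease cathepsin S, was at 27.0, 15.4 and 21.8 FPKM in Ctrl against 16.0, 11.3 and 13.96 FPKM in Gsk3sKO (difference -0.58, SE 0.23, adjusted limma p 0.745). Cebpa, a myeloid transcription factor, was at 2.63, 0.935 and 1.42 FPKM against 0.601, 0.487 and 0.213 FPKM (difference -0.85, SE 0.36, adjusted p 0.750). Cebpa passed the filter only through Ctrl (mean 1.66 FPKM, against 0.434 FPKM in Gsk3sKO). Fth1, the ferritin heavy chain found in most cells, was at 422, 464 and 363 FPKM against 357, 312 and 283 FPKM (difference -0.39, SE 0.15, adjusted p 0.741).

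None of the 3 passed the adjusted threshold, and after rescaling the libraries Ctss (difference -0.52) and Fth1 (-0.33) missed the unadjusted one. Cebpa missed it with a pseudocount of 0.1 and with the replicate number as a block. When single libraries were left out, the unadjusted call was kept in 2 of 6 fits for Ctss, 2 of 6 for Fth1 and 1 of 6 for Cebpa. The homeostatic list had 9 of 20 tested, with 1 lower (11.1%, against 5.20% of all gene totals) and a median of -0.06. Its most abundant genes besides Ctss were Cst3, the protease inhibitor cystatin C, at 69.5 to 113 FPKM and Lgmn, the lysosomal protease legumain, at 27.1 to 34.2 FPKM, both overlapping. Many of these genes are also used by neurons or astrocytes, so their levels do not stand for microglia alone.

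The transcription factor and surface list had 9 of 28 tested and a median of -0.33. In it 1 was lower (11.1%, against 5.20% of all gene totals) and 2 were lower without overlap (22.2%, against 8.30%). Beside Cebpa, the groups of Laptm5, a lysosomal protein of blood-derived and microglial cells, did not overlap, at 2.78, 2.35 and 1.71 FPKM in Ctrl and 1.51, 0.603 and 1.13 FPKM in Gsk3sKO (adjusted limma p 0.772). Among the more abundant were Itgb5, an integrin chain, at 3.37 to 6.91 FPKM, and Fcer1g, the common chain of Fc receptors, at 0 to 5.10 FPKM. Spi1, the gene of PU.1, was listed above 0 in 3 libraries and at most at 0.372 FPKM.

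The phagocytic list had 15 of 23 tested and a median of -0.11, with 1 lower (Fth1, 6.67%, against 5.20% of all gene totals). Its other leading genes, the actin-binding Tmsb4x and the lysosomal protease Ctsb, overlapped at 137 to 201 FPKM and 52.0 to 69.6 FPKM. Of 15 cytokine and chemokine genes 3 were tested, with 0 called. They were Nfkbia, the inhibitor of NF-κB, at 2.78 to 9.99 FPKM, the cyclooxygenase gene Ptgs2 at 3.70 to 6.29 FPKM, and Il18 at 0 to 7.24 FPKM. Il1b, Il6 and Tnf, the main inflammatory cytokines of activated microglia, were listed at 0 in all 6 libraries.

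Markers of other cells that such tissue can hold were measured beside the C1q result. The 16 genes of border macrophages, monocytes, granulocytes and T and B cells summed to between 1.49 and 3.47 FPKM, and none reached a mean of 1 FPKM. Mrc1, which marks border macrophages, was at most at 0.996 FPKM, and S100a8 and S100a9 of granulocytes were listed at 0 in every library. Of the 16 genes, 4 were listed at 0 in all libraries, and the sums of the groups overlapped.

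Some oligodendrocyte markers were lower in Gsk3sKO, as the C1q chains were. Of 10 genes 9 were tested, with a median of -0.56. At an unadjusted p below 0.05, 4 were lower (44.4%, against 5.20% of all gene totals). The same 4 were lower without overlap (44.4%, against 8.30% of all gene totals). They were the myelin genes Mog (3.996, 3.02 and 2.67 FPKM against 1.81, 0 and 0 FPKM), Mag (difference -0.69, SE 0.25), Cnp (-0.72, SE 0.27) and Cldn11 (-0.63, SE 0.24), with adjusted limma p-values of 0.607, 0.702, 0.708 and 0.732. Mog passed the filter only through Ctrl (mean 3.23 FPKM, against 0.602 FPKM in Gsk3sKO). When single libraries were left out, the unadjusted call was kept in 6 of 6 fits for Mog, 3 of 6 for Mag, 3 of 6 for Cnp and 2 of 6 for Cldn11. Cnp also missed the threshold with the ordinary linear model and with coding transcripts alone, and Cldn11 with the replicate number as a block. The summed list overlapped, at 140 to 212 FPKM in Ctrl and 150 to 193 FPKM in Gsk3sKO, as the abundant myelin genes Mbp (16.3 to 46.7 FPKM) and Mobp (20.7 to 30.5 FPKM) overlapped. No oligodendrocyte marker was listed at 0 in all libraries. The part of these cells in the C1q difference was not tested.

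Astrocyte markers had 10 of 10 tested, 0 called and a median of 0.04, and their sum ran from 184 to 240 FPKM. The glutamate transporter genes Slc1a2 and Slc1a3 ran from 89.4 to 122 FPKM and from 20.8 to 26.9 FPKM, and the glycolytic enzyme gene Aldoc from 26.9 to 42.9 FPKM. Endothelial markers had 10 of 10 tested, 0 called and a median of 0.04, and their sum ran from 32.2 FPKM in Ctrl 1 to 97.9 FPKM in Ctrl 2. Their leading genes were the transporter Slco1a4 (5.24 to 25.9 FPKM), Egfl7 (7.62 to 17.2 FPKM) and the VEGF receptor Flt1 (3.70 to 18.3 FPKM). Neither list separated the groups.

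Neuron markers had 10 of 10 tested, 0 called and a median of 0.02, led by the presynaptic Snap25 (991 to 1134 FPKM), the postsynaptic Nrgn (514 to 920 FPKM) and the kinase gene Camk2a (482 to 656 FPKM). The D2 neuron and RiboTag genes had 7 of 7 tested, 0 called and a median of 0.35, with Penk at 96.5 to 295 FPKM and Rpl22 at 36.6 to 89.6 FPKM. The spread of Drd2 between 1.58 and 14.1 FPKM within Ctrl was larger than that of any C1q chain. In Ctrl libraries 1 to 3 the C1q sums were 18.9, 18.2 and 17.6 FPKM. In Gsk3sKO libraries 1 to 3 Drd2 was at 8.32, 5.96 and 7.28 FPKM and the C1q sums were 8.94, 9.59 and 12.3 FPKM. The part of D2-cell content in the C1q difference was not tested.

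**Figure D5:**
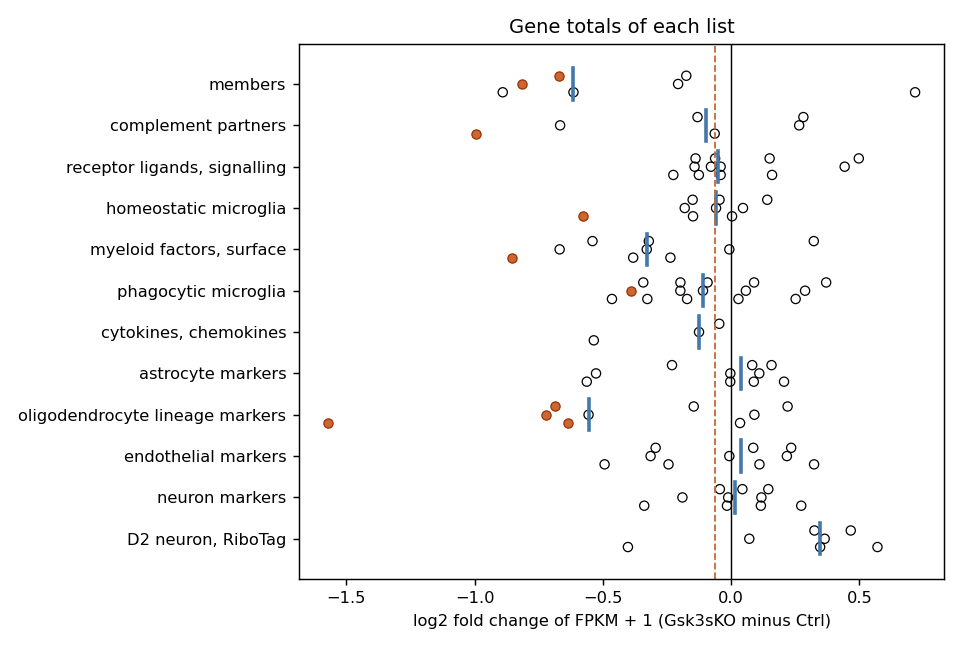
Difference of each tested gene total on the log2(FPKM + 1) scale (x axis, Gsk3sKO minus Ctrl) by list (y axis), filled where the unadjusted limma p is below 0.05, with each list's median as a blue bar and the median of all gene totals dashed. Filled points appear for 2 members and 8 other genes, 4 of them in the oligodendrocyte list, and all lie below 0.

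The genes most like the tested members over the 6 libraries were found by correlating each of 12867 other gene totals with the mean standardised profile of the 7 tested members. They were Dnmbp (Pearson's r 0.987), Kxd1 (0.987), Josd2 (0.984), Gm26165 (0.982) and Prpf18 (0.980). With only 6 libraries, 121 gene totals passed an r of 0.9, and all gene totals of a library share its depth and scaling, so these are descriptions. Dnmbp was at 4.14, 3.15 and 3.49 FPKM in Ctrl against 2.16, 2.41 and 2.77 FPKM in Gsk3sKO, the same order of libraries as the members' profile. Gm26165 was at 8.13, 3.39 and 5.21 FPKM in Ctrl against 0, 0 and 1.04 FPKM in Gsk3sKO. It passed the filter only through Ctrl. None of the 5 is among the listed markers of any cell type.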

How the data were processed

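RiboTag immunoprecipitates gave 3 Ctrl and 3 Gsk3sKO libraries, prepared with a stranded total RNA kit and grouped here by their titles. The authors deposited FPKM per transcript and library, on GRCm38. The tools named in the submitters' processing notes were StringTie 1.3.4d, HISAT2 2.1.0 and SAMtools 1.9. How they were set, and how reads shared by transcripts were divided, is not given in the sources used here. The fold, p-value and q-value columns that the authors deposited beside the FPKM hold their own comparison and were not used. Columns of values per library left out numbered 0.

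FPKM was summed by gene identifier (47729 gene totals), and 114237 transcripts were matched to GENCODE M21 while 983 were not. Group differences of log2(FPKM + 1) were tested with limma 3.58.1 (moderated, with a trend, R 4.3.3) on features with a mean of at least 1 FPKM, with Benjamini-Hochberg adjustment over all of them. Single values were compared by exact permutation. Other steps used Python 3.11.15 with biopython 1.88, matplotlib 3.10.9, scipy 1.17.1, pandas 2.3.3 and numpy 2.4.6. The fit was tested on simulated data. The files give no fragment counts, so a count test was not used, and the depth is approximate.

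The members and the gene lists were chosen with earlier results of these data known. The genes named were every member, in each list those with an unadjusted p below 0.05 and the 3 with the highest mean, the 5 gene totals most like the members, and Gsk3b, Rpl22 and Drd2 as checks. Some genes that this rule names are not reported here. Genes named outside this rule, such as Adora2a, Serping1, Laptm5, C3, Tyrobp, Spi1, Mrc1 and the cytokines, were chosen after their values were seen. The alternatives were another pseudocount (0.1), no filter or a mean of at least 5 FPKM, rescaling, an ordinary linear model, a replicate block and leaving out each library. Coding transcripts alone, and the separation of the groups under rescaling and without each library, were added after seeing the data.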

Additional observations from a re-analysis of the deposited data

How the results depend on the processing

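For the 7 tested members, all 85 differences recomputed under the alternatives kept their direction. Of these, 3 no longer passed the unadjusted threshold of 0.05 and 5 newly passed it, and adjusted p-values ran from 0.531 to 0.997. Tmem119 and Trem2 could be tested only with no filter on low values. The number of member gene totals called was 2, and 1 when a mean of 5 FPKM was asked for, since C1qb alone was then tested, and it ran from 1 to 3 when single libraries were left out. The number of member transcripts called was 2, but 1 with a pseudocount of 0.1, 1 with the filter of 5 FPKM, 1 after rescaling, and 0 to 2 when single libraries were left out. Of the other listed genes 8 were called, 3 with the filter of 5 FPKM, and 3 to 8 without single libraries. The ratio of the summed members ran from 0.629 to 0.758 without single libraries and was 0.704 after rescaling.

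Same-numbered Ctrl and Gsk3sKO libraries deviated from their group means with correlations of -0.0274, -0.0108 and -0.0809. Those of unlike number ran from -0.0254 to 0.0534. The values thus gave no sign of pairing by number, which does not settle whether such libraries were handled together. With the replicate block, the member gene totals called were still 2, the member transcripts 0 and the other listed genes 6.

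Depth limits Trem2, Tmem119 and Aif1 most, whose values rest on roughly 0 to 106, 18.4 to 141 and 12.97 to 202 fragments per library. The causes of these changes were not tested.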

Other observations

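A second search for similar patterns, added after the C1q values were seen, used the 3 C1q chains alone. The gene totals closest to their mean standardised profile over the 6 libraries were Fhad1 (Pearson's r 0.990), Pdcl3 (0.985), Gnb4 (0.984), Mtss1l (0.976) and Ctsc (0.973), and 81 of 12867 passed 0.9. Ctsc, the lysosomal protease cathepsin C, was at 1.80, 1.36 and 1.32 FPKM in Ctrl against 0.344, 0.435 and 0.871 FPKM in Gsk3sKO, without overlap. Each Gsk3sKO value was below the 1 FPKM asked of the mean, so Ctsc passed the filter only through Ctrl. Fhad1 was at 5.995, 5.05 and 5.24 FPKM against 1.02, 1.40 and 1.73 FPKM. These r values are descriptions, since the C1q profile was picked for its difference between the groups.

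Of 85 listed gene totals below the filter, 6 were lower in Gsk3sKO without overlap (Cd59a, Ccl5, Ikzf1, Siglech, Ccl6 and Lyz2, 7.06%). Another 2 were higher without overlap (C1ra and P2ry13, 2.35%). The shares of gene totals above the filter, 8.30% and 3.71%, are not a like measure. Of the 85, 12 were listed at 0 in all libraries and cannot separate, and the share over all gene totals below the filter was not computed. The chemokine gene Ccl5 was at 1.19, 1.17 and 2.45 FPKM in Ctrl and listed at 0 in the knockouts. Ccl6 was at 1.46, 0.406 and 0.219 FPKM in Ctrl and also listed at 0 in the knockouts. Siglech, a lectin of microglia, was at 0.928, 1.34 and 1.41 FPKM against 0.263, 0.322 and 0.700 FPKM, and Cd59a, a complement inhibitor, at 0.749, 1.40 and 1.48 FPKM against 0.366, 0.524 and 0.622 FPKM. In the opposite direction, C1ra, a protease bound by C1q, was at 0, 0.451 and 0.203 FPKM in the controls against 0.840, 0.483 and 1.68 FPKM in the knockouts. P2ry13, a nucleotide receptor of microglia, was at 0.158, 0.380 and 0.387 FPKM against 0.410, 1.02 and 0.538 FPKM. These genes were chosen after their values were seen, and none passed the filter on low values.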
